A study of Mus musculus with 10 samples.

Results

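To ask how the bone endothelium differs between growth and maturity, endothelial cells (ECs) of long bone were compared between juvenile (3-week-old) and adult (12-week-old) mice by single-cell RNA sequencing, with 2 libraries at each age. Of 19978 cell barcodes in these 4 libraries, 18990 met the rule for a bone EC: 500 to 6000 detected genes, under 25% of UMIs (unique molecular identifiers, each standing for 1 captured transcript) from mitochondrial genes, at least 2 UMIs in sum of the endothelial genes Cdh5, Pecam1, Egfl7 and Kdr, and no UMI of the leukocyte gene Ptprc. The same rule took 44640 of 47466 barcodes over the 10 libraries of the series, which also hold older and treated mice. The ECs were 4192 and 3883 cells in the juvenile libraries and 5508 and 5407 cells in the adult libraries. They were divided into 10188 sinusoidal, 1655 arterial and 7147 other cells. Sinusoidal cells held at least 3 UMIs of Stab2, a scavenger receptor of sinusoids. Arterial cells held at least 4 UMIs in sum of Gja4, Gja5, Fbln5 and Stmn2 and at most 1 of Stab2. Other cells are the rest, a mixed set that met neither rule and takes in shallow sinusoidal cells. A difference between the ages in other cells may be one of their mix, which was not tested.

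Both groups were untreated C57BL/6 mice of the Cdh5-mTnG genotype, a reporter under the promoter of the endothelial cadherin gene Cdh5, and the tissue was femur and tibia. According to the methods, the epiphysis was detached, blood cells were depleted by lineage markers, and cells with both reporter colours, nuclear GFP and membrane Tomato, were sorted. The juvenile cells came from 2 male and 2 female mice and the adult cells from 6 female mice, pooled within each age, so both libraries of a group sample 1 pool. Every p-value below therefore measures the spread between libraries of a pool, which may be technical, and not the spread between mice. Age cannot be told apart from anything else that differed between the pools, including the kit version, which the design text does not give per library. Sex was handled by using autosomal genes only and by the comparisons with female cells at the end.

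The libraries held 17937547 to 21408678 UMIs, and the median EC had 3952 and 4204 UMIs in the juvenile and 3299 and 3106 in the adult libraries. Between 24 and 45 barcodes were shared by any pair of libraries, at most 1.11% of a library. Library pairs of 1 group differed by more than sampling noise (chi-square per degree of freedom of 2.09 for the juvenile and 4.45 for the adult pair) and by far less than libraries of different ages (47.2 to 50.3), so none was a copy of another. In all 4 libraries, 7 of 7 sinusoidal markers that the rule did not use (among them Flt4, Gpr182 and Stab1) were higher in sinusoidal than in arterial cells, and 7 of 7 arterial markers (among them Bmx, Efnb2 and Sox17) were higher in arterial cells, as their names say. RNA of blood cells differed between the ages despite the depletion. Summed over 17 neutrophil and myeloid markers, ECs held 67.0 and 41.2 UMIs per 1000000 autosomal UMIs (CPM) in the juvenile and 318 and 538 CPM in the adult libraries. The sum over 11 lymphoid markers was 140.1 and 123 against 322 and 1099 CPM. Erythroid markers went the other way in sinusoidal cells, where 6 of 8 were higher at 3 weeks. Of all genes tested in these cells, 6.45% were called higher and 9.64% lower. Of 5 megakaryocyte markers tested there, 2 (Pf4 and Itga2b) were higher and 1 lower, and the sum over all 8 was 211 and 220 against 114 and 96.7 CPM. Most of that sum was Pf4. Levels of antigen presentation genes below were therefore also computed without any cell that held a UMI of 24 blood cell genes. These are genes of mast cells, basophils, granulocytes and lymphocytes, with no marker of macrophages or dendritic cells.

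Long bones contain arteries, thin capillaries near the growth plate and the bone surface, and a wide network of sinusoids through which blood cells leave the marrow. At 3 weeks a mouse's long bones still lengthen quickly and their vessels grow with them, and at 12 weeks growth has slowed and bone is mainly remodelled. ECs also show antigens on major histocompatibility complex (MHC) molecules, answer interferons, lay down the basement membrane on which they sit and release growth factors to neighbouring cells.

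Sinusoidal cells formed a larger share of the ECs at 3 weeks, and arterial cells a smaller one. The sinusoidal share was 62.7% and 62.6% in the juvenile and 47.3% and 46.6% in the adult libraries. For arterial cells it was 5.18% and 5.72% against 11.7% and 10.6%, and for other cells 32.2% and 31.7% against 41.0% and 42.8%. The groups did not overlap in any class. Female cells here are those with a UMI of Xist and none of a Y-linked gene. They were 900 and 887 juvenile and only 2159 and 1882 adult cells, although all adult mice were female. Among female cells alone the juvenile share of sinusoidal cells exceeded the adult one by 10.2 percentage points, against 15.6 over all cells, and the difference in the arterial share was -3.33 against -5.69 points. Their adult sinusoidal shares were 63.0% and 60.5%, so this set differs from all cells by more than sex. Since juvenile cells were deeper and the classes rest on UMI numbers, each cell was also thinned to 2000 UMIs before it was classed, with shallower cells left out (560 and 575 juvenile and 1267 and 1375 adult cells). The sinusoidal shares were then 43.3% in each juvenile library and 34.8% and 35.0% in the adult libraries, and the arterial shares 3.80% and 4.41% against 9.86% and 9.42%. Other cells were 52.9% and 52.2% against 55.3% and 55.5%, so most of their difference was lost. With 2 libraries against 2, the exact two-sided permutation test cannot give a p below 0.333, which is the value for each of these shares. The Stab2 threshold also moves with the Stab2 level per cell, so a share of sinusoidal cells is a share of cells past that threshold.

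**Figure D1:**
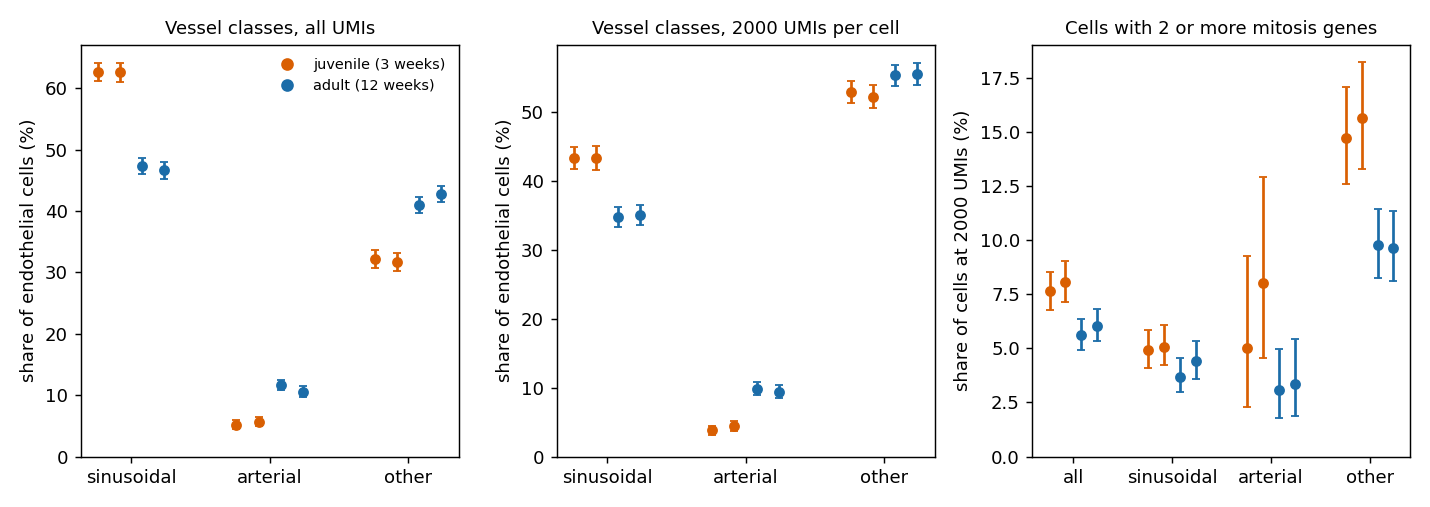
Shares per library in percent, with juvenile libraries in orange, adult libraries in blue and bars for the 95% Clopper-Pearson interval, which covers counting error only. The left and middle panels show the 3 vessel classes before and after thinning to 2000 UMIs, and the right panel the share of thinned cells with UMIs of at least 2 mitosis genes, which was 7.63% and 8.04% in juvenile and 5.61% and 6.05% in adult ECs.

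Across the transcriptome, UMIs were summed per library and tested with edgeR, and a gene was called at a Benjamini-Hochberg adjusted p under 0.05 and an absolute log2 fold change of at least 0.5, with positive values for higher levels at 3 weeks. An increase or decrease below is always that of juvenile relative to adult cells. Over all ECs, 1016 of 13736 genes tested (7.40%) were higher and 1729 (12.6%) lower in juvenile bone. In sinusoidal cells 804 (6.45%) were higher and 1202 (9.64%) lower of 12471 genes, in arterial cells 472 (5.18%) and 592 (6.50%) of 9106, and in other cells 768 (6.44%) and 1345 (11.3%) of 11918. The libraries of each group lie close together, and the values of the 2 groups did not overlap in 73.9% of all genes tested over all ECs, 69.3% in sinusoidal, 55.9% in arterial and 65.9% in other cells, so the absence of overlap is the usual case. With female cells alone, which are fewer, 1898 genes were called over all ECs, 1692 in sinusoidal, 105 in arterial and 818 in other cells, and the thinned cells gave 2157, 1646, 612 and 1405. The female arterial cells of the juvenile libraries numbered only 25 and 24. Of 9026 genes tested in all 3 classes, 127 were called higher and 280 lower in each of the 3, and 20 were called in opposite directions in a pair of classes. A sum over cells does not tell fewer expressing cells from less RNA per cell, and the percentage of cells in which a gene was found is added for some genes, after thinning to 2000 UMIs. Counts of list members below are over those that passed the filter on low counts, and the shares of all genes called higher or lower in the same cells are given beside them as the background.

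Genes are ranked here and below among called protein-coding genes with a mean of at least 20 CPM in the higher group and no overlap of the groups, leaving out markers of other cells. The gene with the largest increase over all ECs by this rule was Nts, which encodes the peptide neurotensin (chromosome 10, 102481756 to 102490486, GRCm38). It measured 24.7 and 38.5 CPM in the juvenile libraries and 1.91 and 0.825 CPM in the adult libraries (log2 fold change 4.5 ± 0.27 (SE), adjusted p = 5.91e-08), and 9.44% and 10.2% of juvenile and 1.16% and 0.222% of adult cells of the arterial class held a UMI of it. Igfbp2, which encodes a binding protein of insulin-like growth factors, measured 559.7 and 586 CPM in the juvenile libraries and 93.5 and 94.8 CPM in the adult libraries (log2 fold change 2.61 ± 0.038 (SE), adjusted p = 1.22e-13). Tmem252, a membrane protein gene, had 97.7 and 102 against 15.7 and 15.7 CPM (log2 fold change 2.67) and Clec1b, the receptor CLEC-2 in platelets and some sinusoidal cells, 81.2 and 81.1 against 8.53 and 11 CPM (3.06). The juvenile libraries were the higher ones for each of these genes. The hormone gene Fgf23, whose product lowers blood phosphate, measured 29.1 and 27.3 against 3.52 and 2.59 CPM (3.2), with 40.6 and 38.5 against 5.89 and 4.12 CPM in sinusoidal cells. The ligand gene Wnt5b measured 40.7 and 45.3 against 9.87 and 10.2 CPM (2.1). The other genes with the largest increases were Igf1, the transporter gene Slc10a6, C1qtnf6 and AA467197, with log2 fold changes between 2.09 and 2.42.

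Among genes with the largest decreases, 4 belong to blood cells: the mast cell and basophil proteases Prss34 and Mcpt8, the granulocyte protease Ctsg and Ms4a3. Prss34 had no UMI in juvenile ECs and 3070 in adult ECs, which puts it at least 939-fold lower over the group (floor of 3 counts), and its level moves with the blood cell markers above. The others were genes of antigen presentation, H2-Q6, H2-Q7, H2-Aa and Cd74, the arterial gene Gkn3 at 2.54 and 0.486 against 33.3 and 37.96 CPM (-4.54) and Cfd, the complement factor D gene, at 14.2 and 19.9 against 182 and 197 CPM (-3.47).

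**Figure D2:**
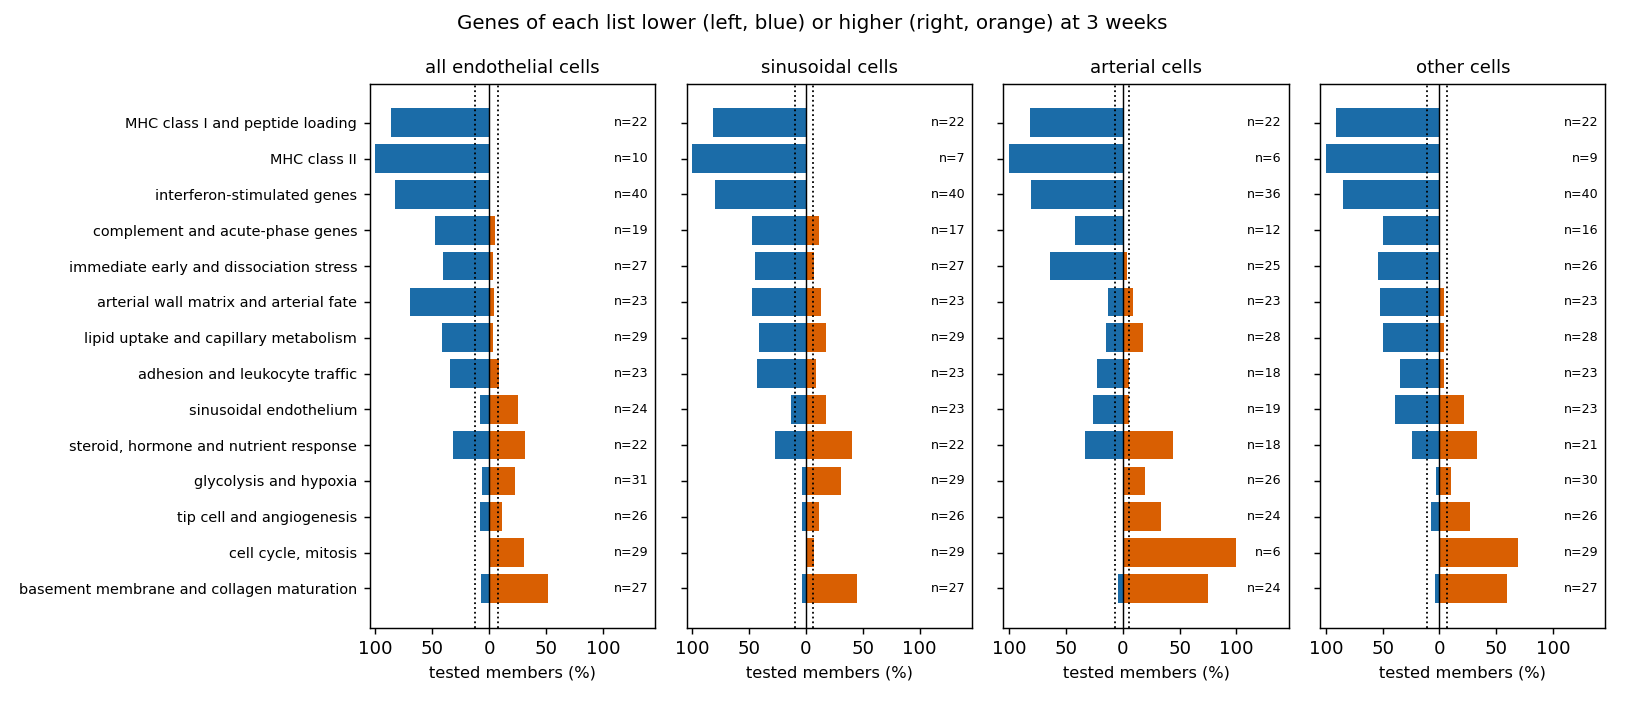
Share of the tested members of 14 gene lists that were called lower (blue, to the left) or higher (orange, to the right) at 3 weeks, in percent, for all ECs and for each vessel class, with n the number of members tested. Dotted lines mark the share of all genes tested that were called in that direction. The MHC class I and interferon lists extend far beyond the line on the left and the basement membrane list beyond the line on the right. The MHC class II bars in sinusoidal and arterial cells and the mitosis bar in arterial cells were largely set by the filter on low counts. These bars are no result about their lists.

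MHC class I molecules carry peptides from inside the cell to its surface, where T cells read them, and consist of a heavy chain and B2m. Of 22 genes of this route, 19 were lower in juvenile ECs and none was called higher, with a median log2 fold change of -1.09 against 0.0026 for all genes tested, and a background of 12.6% of genes lower. DESeq2 also called 19 lower and none higher, and 2 members had an unadjusted p under 0.05 on the higher side. The classical heavy chain H2-K1 (chromosome 17, 33996017 to 34000347) measured 279 and 289 CPM in the juvenile libraries and 1638 and 1609 CPM in the adult libraries (log2 fold change -2.51 ± 0.031 (SE), adjusted p = 7.08e-14), and H2-D1 1198 and 1233 CPM in the juvenile libraries and 3654 and 3576 CPM in the adult libraries (log2 fold change -1.57 ± 0.027 (SE), adjusted p = 6.40e-13). For B2m, the shared light chain on chromosome 2, 122147686 to 122153083, the values were 2229.8 and 2318 against 6169 and 5987 CPM (-1.42). All 3 were lower in both juvenile libraries than in either adult library, in every vessel class. The non-classical heavy chains H2-Q6 and H2-Q7 had the largest decreases of the list, H2-Q6 at 3.95 and 3.83 against 126 and 122 CPM (-4.99) and H2-Q7 at 18.3 and 17.7 against 269 and 254 CPM (-3.86). They are near-identical neighbours, so reads may be split between them, and H2-Q7 was found in 3.25% and 3.30% of juvenile and 38.1% and 36.5% of adult cells and H2-Q6 in 0.743% and 0.756% of juvenile and 20.02% and 20.1% of adult cells. H2-Q4 and H2-T23, further non-classical chains, stood at 56.1 and 48.1 against 201 and 201 CPM and 108 and 118 against 295 and 288 CPM.

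Genes that prepare peptides were lower as well. Psmb9, an inducible proteasome subunit, measured 41.1 and 47.95 against 155 and 153 CPM (-1.79), its partner Psmb8 157 and 153 against 335 and 332 CPM (-1.1), and the proteasome activator gene Psme2 172 and 172 against 296 and 300.1 CPM (-0.79). Tap1 and Tap2, the subunits of the peptide pump of the endoplasmic reticulum, had log2 fold changes of -1.03 and -1.07, and Tapbp, which loads the peptide, -0.61. Nlrc5, the activator of class I genes, was at 2.18 and 1.82 against 11.99 and 12.7 CPM (-2.61). Within classes, 18 of 22 genes were lower in sinusoidal cells (background 9.64%), 18 of 22 in arterial cells (6.50%) and 20 of 22 in other cells (11.3%). With cells that held blood gene UMIs removed the counts were 18, 18 and 20, and in female cells alone 20 of 22, 11 of 20 and 17 of 22.

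MHC class II molecules present peptides taken up from outside and are mainly made by professional antigen-presenting cells. All 10 genes tested were lower in juvenile ECs (background 12.6%), with a median log2 fold change of -3.57. In arterial cells the invariant chain gene Cd74 measured 6.01 and 27.7 CPM in the juvenile libraries and 145 and 219 CPM in the adult libraries (log2 fold change -3.38 ± 0.24 (SE), adjusted p = 3.12e-17). Of the class II chain genes, H2-Ab1 measured 19.2 and 40.9 against 142 and 142 CPM (-2.21) and H2-Aa 2.40 and 19.9 against 87.6 and 99.01 CPM (-3.0). The pattern was of low juvenile and clearly detected adult levels. At 2000 UMIs, Cd74 was found in 1.11% and 2.14% of juvenile and 9.46% and 10.7% of adult cells of the arterial class and H2-Aa in 0% and 1.07% of juvenile and 11.8% and 11.6% of adult cells. Blood cells among the adult barcodes held Cd74 more often, in 45.5% of 22 and 53.3% of 15 cells. The filter on low counts was passed by 7 of the 10 genes in sinusoidal and 6 in arterial cells, through the adult libraries, and these were lower there (background 9.64% and 6.50%). Their direction within these classes was therefore largely set by the filter. They were also lower after removal of cells with blood gene UMIs, which does not cover RNA of macrophages or dendritic cells. DESeq2 called 7 in sinusoidal and 2 in arterial cells. H2-DMb1, which helps to load class II molecules, had 3 UMIs in juvenile and 143 in adult arterial cells, a ratio of 19.6 with a 95% counting interval of 6.58 to 96.3.

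**Figure D3:**
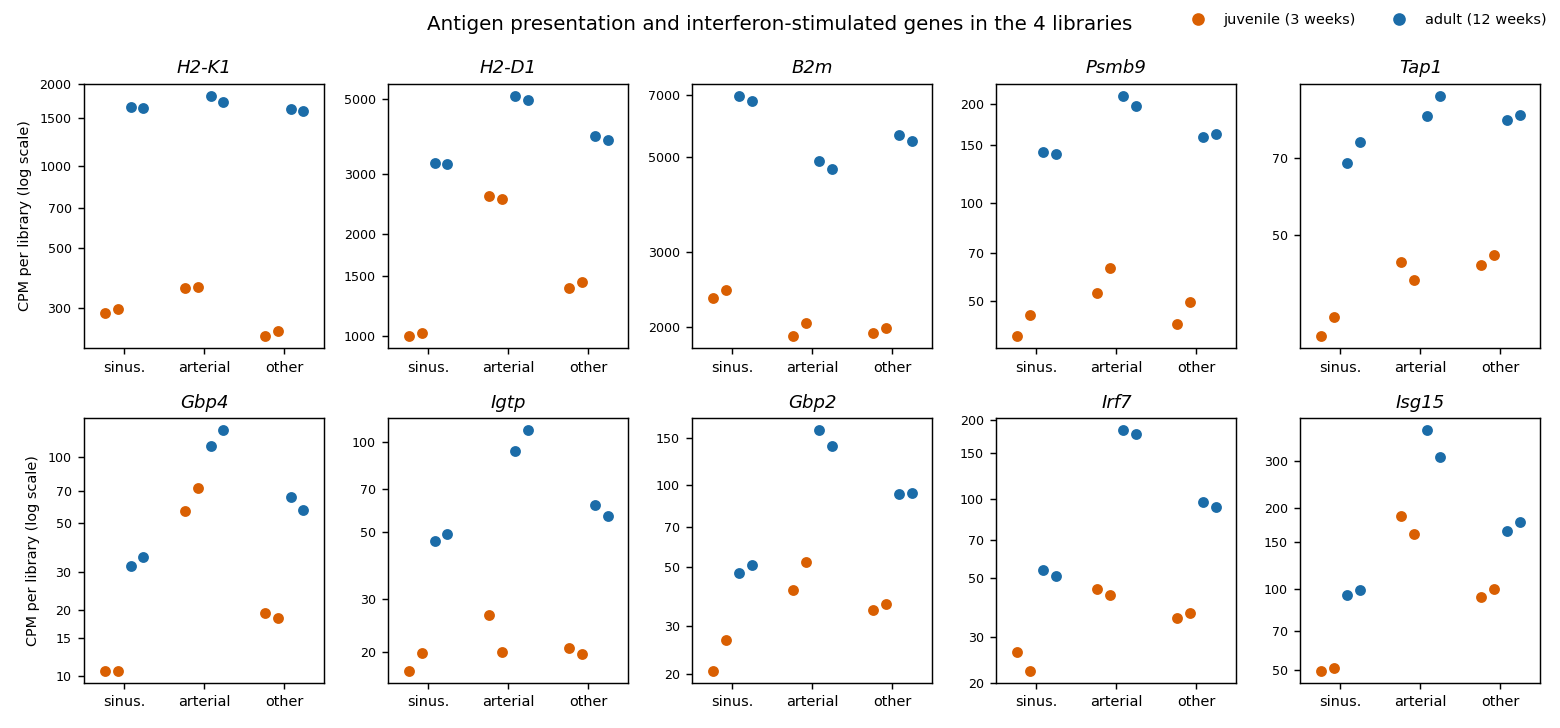
CPM on a log scale in each library (points), for juvenile (orange) and adult (blue) sinusoidal, arterial and other cells, of 5 MHC class I genes and 5 interferon-stimulated genes. In every panel and class both juvenile libraries lie below both adult libraries, as for H2-K1 in sinusoidal cells, at 287 and 297 against 1653 and 1636 CPM.

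Interferon-stimulated genes encode antiviral proteins and the factors that relay the interferon signal. Of 40 tested, 33 were lower and none was called higher in juvenile ECs (median -0.99, background 12.6% lower), with 32 lower and none higher by DESeq2 and 0 on the higher side at an unadjusted p under 0.05. The counts were 32 of 40 in sinusoidal, 29 of 36 in arterial and 34 of 40 in other cells, with backgrounds of 9.64%, 6.50% and 11.3%. Irf7, which amplifies type I interferon production, measured 30.1 and 27.8 CPM in the juvenile libraries and 83.8 and 79.1 CPM in the adult libraries (log2 fold change -1.49 ± 0.059 (SE), adjusted p = 1.17e-09). Irf1, a further transcription factor of the interferon response, was at 49.8 and 50.7 against 98.5 and 94.7 CPM (-0.94). Among the effectors, the guanylate-binding proteins Gbp4 and Gbp2 had 15.6 and 16.3 against 53.1 and 52.9 CPM (-1.73) and 25.8 and 31.1 against 76.1 and 75.4 CPM (-1.41), and the ubiquitin-like modifier Isg15 had 69.8 and 71.7 against 153 and 149 CPM (-1.1). Each of them was lower in both juvenile libraries. The T cell attractant Cxcl9 was mostly a sinusoidal transcript, with 11.7 and 14.4 CPM in the juvenile libraries and 134 and 135 CPM in the adult libraries (log2 fold change -3.37 ± 0.08 (SE), adjusted p = 7.17e-13). A UMI of it was found in 1.55% and 1.69% of juvenile and 16.8% and 16.3% of adult cells of that class. Igtp, a GTPase gene whose annotated span overlaps that of Irgm2, measured 18.9 and 20 against 56.9 and 57.8 CPM (-1.56). The RNA sensor Zbp1 and Ifi27l2a stood at 6.01 and 0 against 32.7 and 26.4 CPM and 6.01 and 4.43 against 40.96 and 41.99 CPM in arterial cells.

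Promoters of these genes were searched for the interferon-stimulated response element, spelled GAAA, any 2 bases and GAAA, on both strands from 250 bases before to 50 after the start in RefSeq's GRCm38.p6 table. It was present for 20 of 30 interferon-stimulated genes with an entry (66.7%) and for 5 of 19 MHC class I genes (26.3%: B2m, Erap1, H2-T22, H2-T23 and Psme1), against 3.99% of 27025 genes. A match describes the letters only. The 250 bases before the start are shown for 5 genes that were lower in at least 1 class, with each match in capitals, to set a chemokine, an antiviral gene, a GTPase and both chains of class I side by side. They are Cxcl10 (chr5:92348890-92349139, minus strand), Ifit3 (chr19:34583279-34583528, plus strand), Igtp (chr11:58199306-58199555, plus strand), H2-T23 (chr17:36032702-36032951, minus strand) and B2m (chr2:122147437-122147686, plus strand).
Cxcl10: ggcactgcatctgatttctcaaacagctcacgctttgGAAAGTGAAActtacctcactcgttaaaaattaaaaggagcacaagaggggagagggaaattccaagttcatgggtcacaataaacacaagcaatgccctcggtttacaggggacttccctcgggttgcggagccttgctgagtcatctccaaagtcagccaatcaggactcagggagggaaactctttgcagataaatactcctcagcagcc
Ifit3: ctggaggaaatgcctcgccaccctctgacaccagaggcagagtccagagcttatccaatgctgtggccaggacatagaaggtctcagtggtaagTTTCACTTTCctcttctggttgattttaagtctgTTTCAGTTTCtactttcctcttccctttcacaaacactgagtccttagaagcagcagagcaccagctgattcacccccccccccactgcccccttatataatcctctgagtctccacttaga
Igtp: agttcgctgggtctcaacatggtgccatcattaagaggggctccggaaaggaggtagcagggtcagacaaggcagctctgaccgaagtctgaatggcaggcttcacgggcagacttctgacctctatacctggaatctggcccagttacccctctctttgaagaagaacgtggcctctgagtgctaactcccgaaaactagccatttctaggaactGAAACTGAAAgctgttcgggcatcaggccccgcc
H2-T23: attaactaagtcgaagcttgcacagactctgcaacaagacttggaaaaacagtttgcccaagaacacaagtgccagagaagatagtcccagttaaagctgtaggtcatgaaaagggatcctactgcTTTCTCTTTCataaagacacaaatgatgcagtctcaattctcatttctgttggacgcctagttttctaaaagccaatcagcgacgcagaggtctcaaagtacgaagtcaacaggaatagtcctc
B2m: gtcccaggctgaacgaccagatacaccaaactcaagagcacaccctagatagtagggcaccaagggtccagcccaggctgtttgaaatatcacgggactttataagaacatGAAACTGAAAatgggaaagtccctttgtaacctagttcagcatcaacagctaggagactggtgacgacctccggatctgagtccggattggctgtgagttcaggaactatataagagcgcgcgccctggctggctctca
Cxcl10 measured 4.37 and 7.66 CPM in the juvenile libraries and 20.3 and 30.8 CPM in the adult libraries (log2 fold change -2.09 ± 0.22 (SE), adjusted p = 8.24e-06). The antiviral gene Ifit3, which may share reads with its copy Ifit3b, had 49.2 and 39.8 against 198 and 177 CPM in arterial cells (-2.08) and 41.2 and 43.6 against 60.7 and 62.3 CPM in sinusoidal cells (-0.54). The effect differed between these classes (difference -1.58 ± 0.17 (SE), adjusted p = 5.81e-08).

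Of 19 complement and acute-phase genes tested in all ECs, 9 were lower, 1 was higher and 9 were not called (background 7.40% higher and 12.6% lower). Lower were 8 of 17 in sinusoidal cells, where 2 were higher, 5 of 12 in arterial and 8 of 16 in other cells, with backgrounds of 9.64%, 6.50% and 11.3%. Cfd was lower in sinusoidal cells, with 17.2 and 28.8 CPM in the juvenile libraries and 307 and 316 CPM in the adult libraries (log2 fold change -3.76 ± 0.14 (SE), adjusted p = 8.64e-11). Serping1, the inhibitor of the first complement component, was at 25.2 and 17.7 against 50.98 and 88.6 CPM in arterial cells (-1.68), and C1ra, a protease of that component, at 2.40 and 4.43 against 15.3 and 27.5 CPM (-2.57). Apoe, the lipid carrier, measured 498 and 609 against 1092 and 1165 CPM in arterial cells (-1.02). Every juvenile value here was below both adult values. Markers of marrow stroma moved too. In sinusoidal cells 4 of 11 tested were lower (background 9.64%), with a sum over all 12 of 327 and 285 against 351 and 432 CPM. Among them was the fat cell gene Adipoq at 6.67 and 6.86 against 12.1 and 29.9 CPM (-1.62). In arterial cells Adipoq alone of 7 was called (background 6.50% lower), at 0 and 2.21 against 22.2 and 68.4 CPM, and the sum was 2449 and 2284 against 2422 and 2535 CPM. Cxcl12, which is counted below among genes of arteries and capillaries, is part of both sums, so they do not measure stromal RNA alone. The part of stromal RNA in the complement genes was not tested.

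Genes of the insulin-like growth factor (IGF) system, which drives the lengthening of bones, changed in both directions. The growth factor gene Igf1 (chromosome 10, 87858265 to 87937042) measured 78.2 and 73.2 CPM in the juvenile libraries and 14.8 and 13.4 CPM in the adult libraries (log2 fold change 2.42 ± 0.068 (SE), adjusted p = 7.59e-11). Igf1 was found in 12.7% and 12.7% of juvenile and 2.95% and 2.80% of adult cells. Of its binding proteins, Igfbp2 was found in 51.6% and 51.9% of juvenile and 12.97% and 13.7% of adult cells and Igfbp5 measured 149.9 and 131 against 57.8 and 60.3 CPM (1.25). Both were higher in both juvenile libraries. Igfbp3 and Igfbp7 went the other way, with 242 and 252 against 391 and 401 CPM (-0.68) and 3328 and 3266 against 5245 and 5245 CPM (-0.67). These are values over all ECs, whose mix of vessel classes differed between the ages. The insulin receptor gene Insr stood at 292 and 286 against 198 and 193 CPM (0.57), and the receptor Igf1r was not called at 21.7 and 23.7 against 21.7 and 21.1 CPM. Over all ECs 4 of 13 genes were higher and 4 lower (background 7.40% higher and 12.6% lower). In sinusoidal cells 5 of 13 were higher and 2 lower (background 6.45% higher and 9.64% lower), and in other cells 3 of 11 were higher and 3 lower (background 6.44% higher and 11.3% lower). In arterial cells 2 of 10 were higher (background 5.18%). By class, Igfbp2 was higher in sinusoidal (640.1 and 685 against 137 and 135 CPM), arterial (93.7 and 94.05 against 9.15 and 9.33 CPM) and other cells (429 and 434 against 61.5 and 65.6 CPM). The increase was larger in arterial than in sinusoidal cells (difference 1.03 ± 0.18 (SE), adjusted p = 0.00107).

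Imprinted and fetal growth genes were higher in 5 and lower in 3 of 16 tested in all ECs (background 7.40% higher and 12.6% lower). They included the epsilon-sarcoglycan gene Sgce at 54.2 and 53.2 CPM in the juvenile libraries and 13.1 and 16.1 CPM in the adult libraries (log2 fold change 1.88 ± 0.084 (SE), adjusted p = 3.12e-09). Grb10, an adaptor that restrains insulin and IGF signalling, was at 150.4 and 147 against 87.6 and 85.9 CPM (0.78). Sgce was higher in each of the 3 classes, with log2 fold changes of 1.78, 1.72 and 2.17 in sinusoidal, arterial and other cells. In arterial cells, Cdkn1c, an imprinted cell cycle inhibitor, measured 300.3 and 344 against 223 and 211 CPM (0.57), and in female cells alone the value turned to -0.56.

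The basement membrane is a sheet of collagen IV, laminins, nidogens and perlecan that ECs build around a vessel. In juvenile ECs, 14 of 27 genes of this sheet and of collagen maturation were higher and 2 lower (median 0.52, background 7.40% higher), and in arterial cells 18 of 24 were higher and 1 lower (median 0.82, background 5.18%). The collagen IV chains Col4a1 and Col4a2, which lie head to head on chromosome 8, showed it in every class. In arterial cells Col4a1 measured 2394 and 2062 CPM in the juvenile libraries and 802 and 734 CPM in the adult libraries (log2 fold change 1.53 ± 0.059 (SE), adjusted p = 1.12e-28) and Col4a2 1661 and 1345 against 563 and 497 CPM (1.5). In sinusoidal cells their log2 fold changes were 0.94 and 0.99. The laminin chains Lamb1 and Lamc1 had 135 and 132 against 47.5 and 46.7 CPM (1.5) and 291 and 212 against 122 and 105 CPM (1.13) in arterial cells, and Hspg2, the gene of perlecan, 789 and 696 against 319.8 and 262 CPM (1.35). Nid1, which bridges laminin and collagen, measured 255 and 254 against 132 and 116 CPM (1.03). All of these genes were higher in both juvenile libraries. Col18a1, the source of endostatin, was at 271 and 266 against 90.6 and 94.8 CPM in other cells (1.53), and Sparc, a matrix protein that binds collagen, at 10472 and 10130.5 against 6230.4 and 6100.4 CPM in arterial cells (0.74). Enzymes and chaperones of collagen were among the higher genes, such as Serpinh1 (1349 and 1314 against 786 and 720.0 CPM, arterial) and Pxdn (139 and 133 against 82.8 and 69.5 CPM, arterial). The prolyl hydroxylase gene P4ha2 was lower (27.6 and 28.8 against 45.3 and 51.3 CPM, -0.77).

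Fibronectin, encoded by Fn1 (chromosome 1, 71585520 to 71653200), a matrix protein of growing and wounded tissue, behaved differently by class. In sinusoidal cells it measured 116 and 111 CPM in the juvenile libraries and 4.89 and 5.29 CPM in the adult libraries (log2 fold change 4.48 ± 0.088 (SE), adjusted p = 8.77e-14). A UMI of Fn1 was found in 16.5% and 14.9% of juvenile and 0.773% and 0.765% of adult cells. In arterial cells, where adult levels were also high, it measured 452 and 322 against 242 and 239 CPM (0.68), and in other cells 41.7 and 30.6 against 24.9 and 15.04 CPM (0.85). The age effect was smaller in arterial than in sinusoidal cells (difference -3.82 ± 0.18 (SE), adjusted p = 2.33e-16) and in other than in sinusoidal cells (difference -3.63 ± 0.22 (SE), adjusted p = 5.91e-13). Matrix proteases changed as well. Mmp14, the membrane-bound metalloproteinase that activates the gelatinase Mmp2, was at 228 and 200.3 against 61 and 46.7 CPM in arterial cells (1.98). Mmp2 itself was at 54.7 and 52.6 CPM in the juvenile libraries and 8.68 and 5.62 CPM in the adult libraries in other cells (log2 fold change 2.9 ± 0.16 (SE), adjusted p = 2.01e-08).

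**Figure D4:**
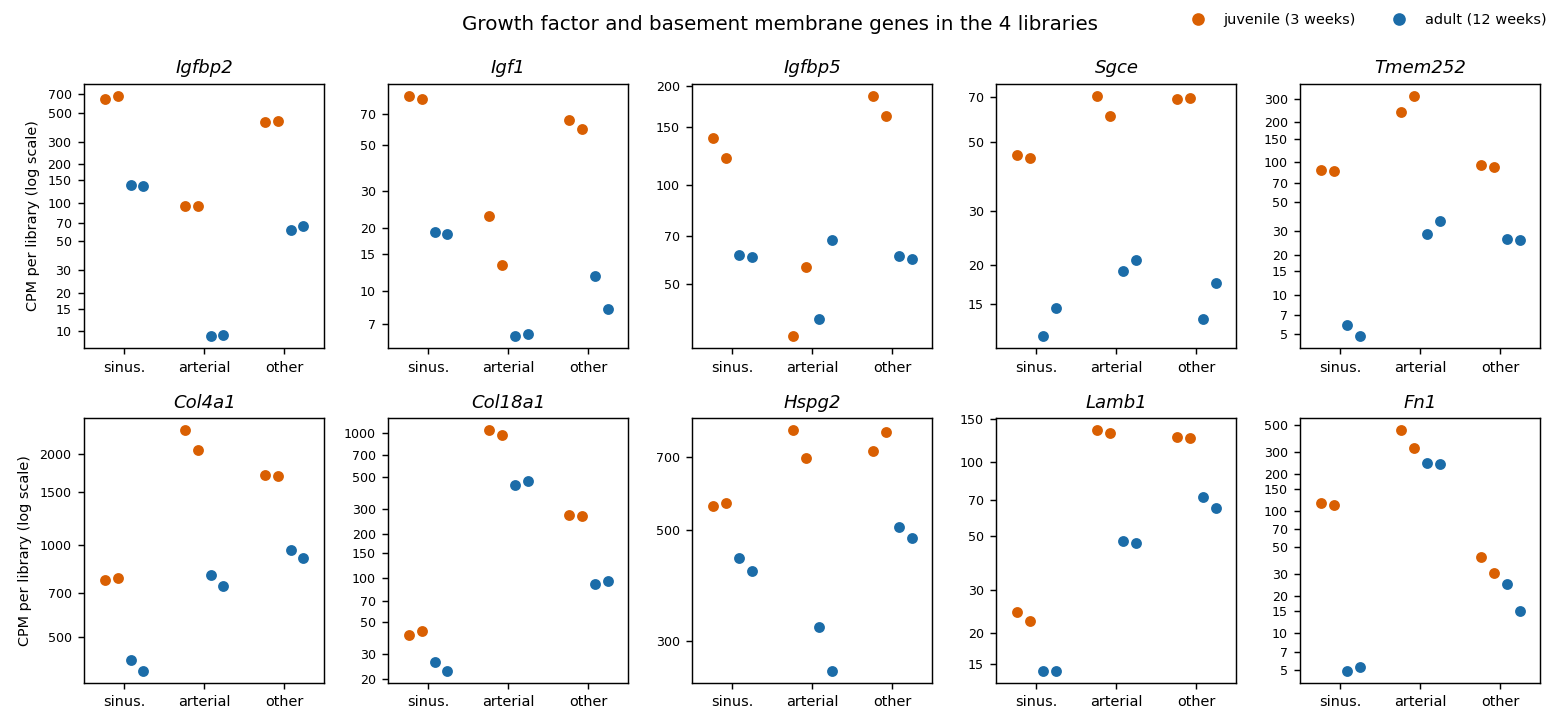
CPM on a log scale in each library (points) for juvenile (orange) and adult (blue) sinusoidal, arterial and other cells. The genes are Igfbp2, Igf1 and Igfbp5 of the IGF system, the imprinted gene Sgce, the membrane protein gene Tmem252 and 5 genes of the vessel matrix. Igfbp2, Sgce and Col4a1 lie higher at 3 weeks in every class, Fn1 is separated most in sinusoidal cells at 116 and 111 against 4.89 and 5.29 CPM, and Igfbp5 overlaps between the ages in arterial cells at 34.8 and 56.4 against 39.2 and 68.4 CPM.

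In other cells, the largest increase by the rule above was of Gap43 (27.9 and 25.3 CPM in the juvenile libraries and 0.294 and 0.304 CPM in the adult libraries, log2 fold change 6.38), a growth cone protein of neurons. Next came Nts (45.2 and 52.6 against 2.94 and 0.456 CPM) and Ptn (49.2 and 42.1 against 3.97 and 2.73 CPM, 3.76), which encodes the growth factor pleiotrophin. Gap43 was found in 3.98% and 3.19% of juvenile cells of this class at 2000 UMIs and in none of the adult cells. Cthrc1, a secreted protein of remodelling matrix, and Cd109 had log2 fold changes of 2.36 and 2.09. These genes were low or at the edge of detection in adult cells and clearly present in juvenile cells.

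Mitosis genes are switched on before a cell divides. At 2000 UMIs, 7.63% and 8.04% of juvenile and 5.61% and 6.05% of adult ECs held UMIs of at least 2 of them, and in other cells 14.7% and 15.6% against 9.75% and 9.63%. In sinusoidal cells the shares were 4.91% and 5.08% against 3.69% and 4.41%. These groups did not overlap, although without adult replicate 1 the difference in sinusoidal cells moved from 0.940 to 0.581 percentage points, and the smallest p that 2 against 2 libraries allow, 0.333, was reached. With at least 3 genes required, the sinusoidal shares overlapped, at 1.80% and 1.60% in the juvenile and 1.29% and 1.62% in the adult libraries. Of the few blood cells with enough UMIs in the adult libraries, 8 of 22 and 8 of 15 held them. Among genes, 20 of 29 mitosis genes were higher in other cells (background 6.44%), 9 of 29 in all ECs (7.40%) and 2 of 29 in sinusoidal cells, near their background of 6.45%, and none was lower in any of them by edgeR or DESeq2, nor at an unadjusted p under 0.05. Without cells that held blood gene UMIs, which were more often adult, 29 of 29 were higher in other cells, 28 of 29 in all ECs and 5 of 27 in sinusoidal cells. This removal, added after seeing the data, took 281 of 4192 and 183 of 3883 juvenile ECs. Of the adult ECs it took 1689 of 5508 and 1735 of 5407, so the ages lost unlike shares of cells. Of 23 genes of DNA replication, 5 were higher in other cells and 2 each in all ECs and in sinusoidal cells, the last counts near the background. Cdk1, the kinase that starts mitosis (chromosome 10, 69335146 to 69352938), measured 86.04 and 96.8 CPM in the juvenile libraries and 47.5 and 53.01 CPM in the adult libraries in other cells (log2 fold change 0.86 ± 0.089 (SE), adjusted p = 8.78e-06). Ccnb1, its cyclin, measured 34.4 and 48.4 against 26.3 and 23.2 CPM (0.74). Cdc20, which ends metaphase, and the centromere histone Cenpa had log2 fold changes of 0.74 and 0.66. In arterial cells 6 of 30 mitosis genes passed the filter on low counts, through the juvenile libraries, and were higher, among them Birc5 with 28.8 and 17.7 against 3.49 and 3.63 CPM (2.67). Their direction was largely set by the filter, so their count is no result about the list. Arterial cells also held more RNA of the cell cycle inhibitor Cdkn1a, at 219 and 279 CPM in the juvenile libraries and 56.2 and 58.6 CPM in the adult libraries (log2 fold change 2.12 ± 0.13 (SE), adjusted p = 5.62e-20).

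The cell cycle homology region, spelled TTTGAA and searched as above, was present in promoters of 21 of 27 mitosis genes with an entry (77.8%) and 3 of 22 replication genes (13.6%), against 20.2% of all genes. The 250 bases before the start of Cdk1 (chr10:69352913-69353162, minus strand) are shown because this gene was higher in both other and arterial cells, with matches in capitals.
Cdk1: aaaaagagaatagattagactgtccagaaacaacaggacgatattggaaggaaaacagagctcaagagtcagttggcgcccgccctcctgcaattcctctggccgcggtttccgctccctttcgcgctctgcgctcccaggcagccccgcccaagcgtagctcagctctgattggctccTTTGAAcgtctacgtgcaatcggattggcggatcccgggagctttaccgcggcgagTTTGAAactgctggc

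Sinusoidal cells clear particles and waste from the blood and let blood cells pass. Of 23 genes of sinusoids tested in them, 4 were higher and 3 lower (background 6.45% higher and 9.64% lower), and several of these were chosen by the study as cluster markers on these samples. Dnase1l3, a nuclease that clears DNA from the circulation, had the largest decrease of these genes, at 887 and 866 CPM in the juvenile libraries and 4238 and 3762 CPM in the adult libraries (log2 fold change -2.19 ± 0.042 (SE), adjusted p = 8.07e-14). Its RNA was found in 57.2% and 55.1% of juvenile and 92.6% and 92.2% of adult cells. Fcgr2b, the receptor that takes up antibody complexes, measured 84.8 and 83.8 against 164 and 171 CPM (-0.99). Higher at 3 weeks were Clec1b at 107 and 114 against 11.4 and 9.62 CPM (3.39) and the addressin Madcam1, to which homing lymphocytes bind, at 72.7 and 71.6 against 20.5 and 20.5 CPM (1.82). The transcription factor Maf was higher too, at 560.2 and 578 against 294 and 251 CPM (1.06). These values did not overlap between the ages. Clec1b was found in 17.1% and 18.05% of juvenile and 1.93% and 1.80% of adult cells of the class. Of the megakaryocyte markers given above, Pf4 and Itga2b were also higher in this class and another was lower. The log2 fold change of Clec1b was 3.48 without cells that held 3 or more UMIs of other cell types. Cells with fewer such UMIs stayed in, and the part of megakaryocyte RNA in Clec1b was not tested. Tacr1, the receptor of the neuropeptide substance P, had the largest increase in sinusoidal cells by the same rule, at 24.6 and 26.9 against 0.499 and 0.529 CPM (5.61). It was followed by Fn1, Tmem252 (86.7 and 86.3 against 5.89 and 4.86 CPM, 4.0) and Tnfrsf9 (27.01 and 22.6 against 3.20 and 3.81 CPM, 2.82), which encodes the costimulatory receptor 4-1BB.

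The water channel gene Aqp1 (chromosome 6, 55336432 to 55348555) was among the 10 largest decreases in sinusoidal cells. In sinusoidal cells it measured 246 and 248 CPM in the juvenile libraries and 1674 and 1597 CPM in the adult libraries (log2 fold change -2.73 ± 0.034 (SE), adjusted p = 1.40e-15). A UMI was found in 19.01% and 17.6% of juvenile and 70.2% and 70.9% of adult cells. In other cells it stood at 519.7 and 518 against 1483 and 1498 CPM (-1.52), and in arterial cells it was not called, at 767 and 844 against 973 and 927 CPM. The effect was weaker in arterial than in sinusoidal cells (difference 2.46 ± 0.063 (SE), adjusted p = 4.04e-23). Of genes of lipid uptake by capillaries, 12 of 29 were lower and 1 higher in all ECs (background 7.40% higher and 12.6% lower), and 14 of 28 were lower and 1 higher in other cells (background 6.44% higher and 11.3% lower). The lower ones hold Aqp7 and Cav1, which the study names on these samples as markers of the capillaries of remodelling bone described next. They also hold Timp4 and, in other cells, Car4, which are listed with those markers here. For all of them the direction is not independent evidence. Pparg, the regulator of lipid storage, measured 149.7 and 154 against 356 and 368 CPM in sinusoidal cells (-1.25). In other cells the lipase gene Mgll was at 135 and 127 against 318 and 327 CPM (-1.3) and Tcf15, a transcription factor of fat and muscle capillaries, at 23.2 and 22.6 against 112 and 113 CPM (-2.29). In sinusoidal cells 5 of 29 were higher and 12 lower (background 6.45% higher and 9.64% lower), and in arterial cells 5 of 28 were higher and 4 lower (background 5.18% higher and 6.50% lower). The difference between classes was not tested for the list. In arterial cells the fatty acid carriers Cd36 at 1464 and 1496 against 880.2 and 838 CPM (0.78) and Fabp4 at 12932 and 15552 against 9699.6 and 9322 CPM (0.58) were among the higher ones. Fabp4 was lower in other cells (9389 and 9156 against 13459 and 13434 CPM, -0.54).

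For capillaries of remodelling bone, which the study calls type R, the genes were taken largely from its report on these samples. Their direction here is therefore not independent evidence. The list holds the named markers C1qtnf9, Aqp7, Fmo2, Cav1 and Dach1. It also holds secreted factors that the study reports in these cells, such as Cxcl12 and Bmp6, and further Timp4 and Car4. Of 13 such genes 12 were lower in juvenile ECs (background 12.6%), and 9 of 12 in other cells (11.3%). In sinusoidal cells 7 of 10 were lower and 1, Car4, higher (background 6.45% higher and 9.64% lower), and in arterial cells 2 of 11 were lower (6.50%). Examples in other cells were C1qtnf9 (38.2 and 34.6 against 115 and 114 CPM, -1.65), Aqp7 (12 and 8.17 against 35.9 and 31.7 CPM, -1.74) and the chemokine gene Cxcl12, which holds blood stem cells in the marrow (167 and 119 against 329 and 339 CPM, -1.23). Of 5 markers of the metaphyseal type H capillaries, again of the study's choice, 2 were higher in all ECs (background 7.40%), 1 in sinusoidal (6.45%), 3 in arterial (5.18%) and 3 in other cells (6.44%), with the mechanosensitive channel gene Piezo2 at 91.3 and 110.2 against 49.9 and 37.2 CPM (1.21).

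Genes of the arterial wall and of arterial fate were lower in 16 and higher in 1 of 23 over all ECs (background 7.40% higher and 12.6% lower), where fewer arterial cells also were found. Within arterial cells 3 of 23 were lower and 2 higher (background 5.18% higher and 6.50% lower). Of the markers of mural cells, which wrap vessels, 7 of 9 tested over all ECs were lower and 1 higher (median -1.59, background 7.40% higher and 12.6% lower), and within arterial cells 2 of 8 were lower (median -0.88, background 6.50%). The sum over all 11, of which none was at 0 in all 4 libraries, was 1227 and 1195 against 989 and 1007 CPM over all ECs and 428 and 303 against 408 and 793 CPM in arterial cells. Over all ECs the sum was thus higher although 7 of 9 members were lower. Members not called lower carry it, and it is no measure of mural RNA as a whole. The part of mural RNA in the arterial genes was not tested. Outside the arterial class, 12 of the 23 arterial wall genes were lower and 1 higher in other cells (background 6.44% higher and 11.3% lower), and 11 of 23 were lower and 3 higher in sinusoidal cells (background 6.45% higher and 9.64% lower). Ly6a, the stem cell antigen Sca-1, measured 283 and 284 against 792 and 818 CPM in sinusoidal cells (-1.5), and the axon guidance gene Sema3g, 22.6 and 18.6 against 49.6 and 50.7 CPM in other cells (-1.28). Within arterial cells, the lower genes were Alpl, tissue-nonspecific alkaline phosphatase (31.2 and 18.8 against 127 and 114 CPM, -2.28), Clu (399 and 202 against 595 and 636 CPM, -1.04) and the lymphatic growth factor gene Vegfc (142 and 160.4 against 312 and 286 CPM, -0.98). Higher in them were the connexin gene Gja1 (273 and 323 against 171 and 175 CPM, 0.79) and the Notch target Hey1 (225 and 281 against 169 and 178 CPM, 0.55). The chemokine gene Cxcl14 was lower in arterial cells, with no UMI in juvenile and 100 in adult arterial cells, at least 13.7-fold lower over the group (floor of 3 counts). Among the largest arterial increases were the agrin receptor Lrp4 (161 and 129 against 35.3 and 35.8 CPM, 2.02), the sulfotransferase Chst1 (36.03 and 26.6 against 9.15 and 5.70 CPM, 2.03) and C1qtnf6 (61.3 and 56.4 against 11.3 and 15.03 CPM, 2.17). Among the decreases was Gpx3, a secreted peroxidase (4.80 and 2.21 against 20.9 and 47.2 CPM, -3.23).

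Notch, BMP, TGF-beta and Wnt signals pattern vessels. Of 16 Notch genes 5 were lower in all ECs (background 12.6%), where fewer arterial cells also were found at 3 weeks. Among them were Hey1 (16.5 and 20.6 against 27.5 and 26.7 CPM, -0.55), which was higher within arterial cells, and Notch3, which is also one of the mural markers given above. The receptor gene Notch2 was lower in every class, at 26.6 and 25.1 against 47.1 and 65.9 CPM in sinusoidal cells (-1.12). In arterial cells the ligand gene Jag1 measured 234 and 249 against 159 and 179 CPM (0.52) and the feedback inhibitor Nrarp 210.2 and 164 against 261 and 293 CPM (-0.57). Of 25 genes of the BMP and TGF-beta pathways, 5 were higher and 6 lower in all ECs (background 7.40% higher and 12.6% lower). The ligand gene Bmp4 was lower in sinusoidal cells (9.56 and 9.87 against 19.8 and 23.5 CPM, -1.15). Ltbp4, which stores TGF-beta in the matrix, was lower in all ECs (144 and 149 against 278 and 264 CPM, -0.89). The target Id2 was higher in sinusoidal cells (608 and 606 against 385 and 378 CPM, 0.67). Of 18 Wnt genes, 1 was higher and 2 lower in all ECs, near the background. Genes of tip cells, which lead sprouts, were higher in 3 and lower in 2 of 26 in all ECs (background 7.40% higher and 12.6% lower) and higher in 3 and lower in 1 of 26 in sinusoidal cells (background 6.45% higher and 9.64% lower), which is no result about the list. In other cells 7 of 26 were higher and 2 lower (background 6.44% higher and 11.3% lower). In arterial cells 8 of 24 were higher (background 5.18%), such as the actin bundler Fscn1 (300.3 and 238 against 153 and 152 CPM, 0.82) and the apelin receptor Aplnr (225 and 204 against 144 and 112 CPM, 0.73). Esm1, a secreted proteoglycan of tip cells, was lower in sinusoidal (4.56 and 3.02 against 9.79 and 10.3 CPM, -1.39) and higher in arterial cells (61.3 and 102 against 43.1 and 69.5 CPM, 0.57), where the groups overlapped. Of 21 genes that respond to flow, 2 were higher and 6 lower in all ECs (background 7.40% higher and 12.6% lower). Of 19 in arterial cells 3 were higher and 2 lower, the lower count near its background of 6.50%. Klf2, the factor that shear stress induces, was lower in both, at 2043 and 2268 against 3533 and 3452 CPM in arterial cells (-0.70).

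Genes that answer hormones, metals and nutrients moved in both directions. Metallothioneins Mt1 and Mt2 bind zinc and copper. In sinusoidal cells Mt1 (chromosome 8, 94179082 to 94180327) measured 106 and 106 CPM in the juvenile libraries and 16.3 and 24 CPM in the adult libraries (log2 fold change 2.4 ± 0.11 (SE), adjusted p = 1.00e-09) and Mt2 38.2 and 35.7 against 4.70 and 6.34 CPM (2.75). Fkbp5, which dampens the glucocorticoid receptor, was higher in every class, with 63.7 and 73.02 CPM in the juvenile libraries and 15.7 and 19.2 CPM in the adult libraries in arterial cells (log2 fold change 1.98 ± 0.22 (SE), adjusted p = 2.77e-10). Its log2 fold change was 1.17 in sinusoidal and 1.28 in other cells. Sgk1, a hormone-induced kinase, was at 483 and 491 against 226 and 222 CPM in sinusoidal cells (1.12), and Per1, a period gene that hormones also induce, at 44.6 and 45.3 against 11.99 and 12.7 CPM (1.87). The fatty acid hydroxylase Cyp4b1 was lower, at 99.5 and 112 against 479.9 and 500.0 CPM in other cells (-2.22). So were Fmo1, a flavin monooxygenase (24.2 and 19.1 against 78.7 and 74.3 CPM, -1.82), and Txnip, which responds to glucose (778 and 823 against 1256 and 1215 CPM in sinusoidal cells, -0.63). Over the whole list, 7 of 22 genes were higher and 7 lower in all ECs (background 7.40% higher and 12.6% lower). Of 16 circadian genes, 4 were higher and 4 lower in all ECs (background 7.40% higher and 12.6% lower), and the same counts held for 15 in sinusoidal cells (background 6.45% higher and 9.64% lower). In arterial cells 2 of 13 were higher and 8 lower (background 5.18% higher and 6.50% lower), and in other cells 1 of 15 was higher and 5 lower (background 6.44% higher and 11.3% lower). Lower in each class was Nr1d1, a repressor of the clock, at 12.1 and 12.98 against 26.6 and 28.6 CPM in sinusoidal cells (-1.14). The time of day of collection is not given in the sources used here, and age cannot be told apart from it.

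The glucocorticoid response element, spelled GNACA, any 3 bases and TGTNC, with N for any base, was present in promoters of 3 of 21 genes of this list with an entry (14.3%: Mt1, Sgk1 and Txnip), against 0.537% of all genes. The 250 bases before the start of Mt1 (chr8:94178839-94179088, plus strand) are shown with the match in capitals. In sinusoidal cells Mt1 was increased more than Sgk1, while Txnip was lower.
Mt1: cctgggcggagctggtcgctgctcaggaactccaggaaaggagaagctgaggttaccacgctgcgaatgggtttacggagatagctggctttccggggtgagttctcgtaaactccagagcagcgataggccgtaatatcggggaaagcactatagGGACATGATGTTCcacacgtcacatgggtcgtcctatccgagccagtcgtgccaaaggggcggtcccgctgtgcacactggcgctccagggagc

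Immediate early genes, which cells switch on within minutes of a stimulus and also during tissue dissociation, were lower at 3 weeks in 11 and higher in 1 of 27 in all ECs (background 7.40% higher and 12.6% lower), and lower in 16 and higher in 1 of 25 in arterial cells (background 5.18% higher and 6.50% lower). Jun measured 244 and 226 CPM in the juvenile libraries and 532 and 519.9 CPM in the adult libraries (log2 fold change -1.16 ± 0.04 (SE), adjusted p = 3.90e-10). Egr1 measured 25.6 and 26.9 against 78.1 and 78.3 CPM (-1.57) and the heat shock gene Hspb1 121 and 121 against 401 and 376 CPM (-1.68). The juvenile values were below the adult ones. The handling of the 2 pools cannot be told apart from age for these genes. Genes of glycolysis and hypoxia were higher in 7 and lower in 2 of 31 in all ECs (background 7.40% higher and 12.6% lower). In other cells 3 of 30 were higher and 1 lower (background 6.44% higher and 11.3% lower), and in arterial cells 5 of 26 were higher (background 5.18%). In sinusoidal cells 9 of 29 were higher and 1 lower (background 6.45% higher and 9.64% lower), with higher levels of the pyruvate dehydrogenase kinase Pdk1 (142 and 142 against 80.3 and 70.3 CPM, 0.91) and Ndrg1 (326 and 345 against 242 and 226 CPM, 0.52). The glucose transporter Slc2a1 was higher in arterial cells (56.4 and 43.2 against 19.6 and 21.8 CPM, 1.26). Adhesion and leukocyte traffic genes were lower in 8 of 23 and higher in 2 of 23 in all ECs (background 7.40% higher and 12.6% lower). Among them were the junction proteins Jam2 (48.6 and 53.5 against 141 and 123 CPM, -1.37) and Jam3 (22.7 and 23.8 against 46.7 and 46.4 CPM, -1.0), and the chemokine Cxcl16 (17.3 and 17.4 against 48.4 and 50.1 CPM, -1.51). Of 22 haemostasis genes 2 were higher and 1 lower in all ECs (background 7.40% higher and 12.6% lower), and of 20 in other cells 5 were higher and 3 lower (background 17.7% in either direction). Tfpi2, a protease inhibitor, measured 113 and 114 against 59.5 and 61.5 CPM (0.91). Of 20 genes of cholesterol synthesis 1 was higher and 2 lower in all ECs, no more than the background, and of 11 genes of senescence and ageing 2 were higher and 2 lower (background 7.40% higher and 12.6% lower). Ribosome and protein synthesis genes gave no call among 25 in all ECs with edgeR, although 18 had an unadjusted p under 0.05, and 3 calls in arterial cells, among them the elongation factor gene Eef1a1 (297 and 289 against 449 and 450.5 CPM, -0.62). Of 23 genes of endothelial junctions and identity outside the rule, 1 was higher and 2 lower in all ECs, below the background, with the tight junction gene Cldn5 at 1235 and 1206 against 2289 and 2293 CPM in sinusoidal cells (-0.91).

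The age effect itself was compared between classes in 1 model over 12 sums, with the library as a block. Other cells are the mixed set described above, and the part of its make-up in differences from them was not tested. The effect by class was as follows. The age effect differed between arterial and sinusoidal cells for 724 of 12718 genes (5.69%), between other and sinusoidal cells for 912 (7.17%) and between arterial and other cells for 375 (2.95%). These counts depend on single libraries, with 422 and 449 for the first without juvenile or adult replicate 1, 516 and 586 for the second without juvenile or adult replicate 2, and 199 to 239 for the third without any 1 library. For Clec1b the effect in sinusoidal cells exceeded that in arterial cells, where it measured 5.26 and 5.77 CPM as group means (difference -3.55 ± 0.74 (SE), adjusted p = 0.00193). Rgs2, which dampens signals of G protein-coupled receptors, was higher at 3 weeks in arterial cells (193 and 206 CPM in the juvenile libraries and 50.5 and 56.5 CPM in the adult libraries, 1.9) and lower in sinusoidal cells (27.98 and 28.4 against 50.2 and 48.5 CPM, -0.81). The difference was 2.69 ± 0.15 (SE), adjusted p = 1.85e-14. The von Willebrand factor gene Vwf, whose product catches platelets, was higher in sinusoidal cells (22.02 and 20.9 against 6.69 and 9.30 CPM, 1.43) and lower in other cells (27.7 and 35.8 against 47.4 and 43.1 CPM, -0.51), with a difference -1.96 ± 0.20 (SE), adjusted p = 5.28e-08. The megakaryocyte markers Pf4 and Itga2b were also higher in sinusoidal cells, while another was lower. There the value of Vwf was 1.44 without cells that held UMIs of other cell types as above. Mgp, an inhibitor of calcification, went the same way, with 55.3 and 60.9 against 33.5 and 36.05 CPM in sinusoidal (0.74) and 28.9 and 37.1 against 101 and 70.5 CPM in other cells (-1.38, difference -2.14 ± 0.30 (SE), adjusted p = 8.69e-06). Against the mean of the 3 groups of 12-week-old mice the sinusoidal value reversed to -0.28. For the carbonic anhydrase gene Car4 the values were 11.6 and 10.5 against 1.80 and 2.01 CPM (2.53) and 22.4 and 13.4 against 27.5 and 27.04 CPM (-0.60, difference -3.15 ± 0.34 (SE), adjusted p = 7.43e-08). The value in other cells was 0.23 and not called after thinning. In contrast, the MHC class I chain H2-D1 was lower in all classes, and less so in arterial cells (-0.98 against -1.68 in sinusoidal cells, difference 0.68 ± 0.041 (SE), adjusted p = 2.96e-13). Other genes with the largest differences had markers of other cells among them. Igkc and Ighm, which encode antibody chains, had 1.75 and 3.75 against 19.7 and 762 CPM and 0.877 and 2.56 against 9.29 and 319 CPM in sinusoidal cells, so 1 adult library held most of their RNA. The mural gene Rgs5 and the stromal gene Dcn measured 1.42 and 0.628 against 15.9 and 32.8 CPM and 0.407 and 0.838 against 22.7 and 26.7 CPM in other cells.

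**Figure D5:**
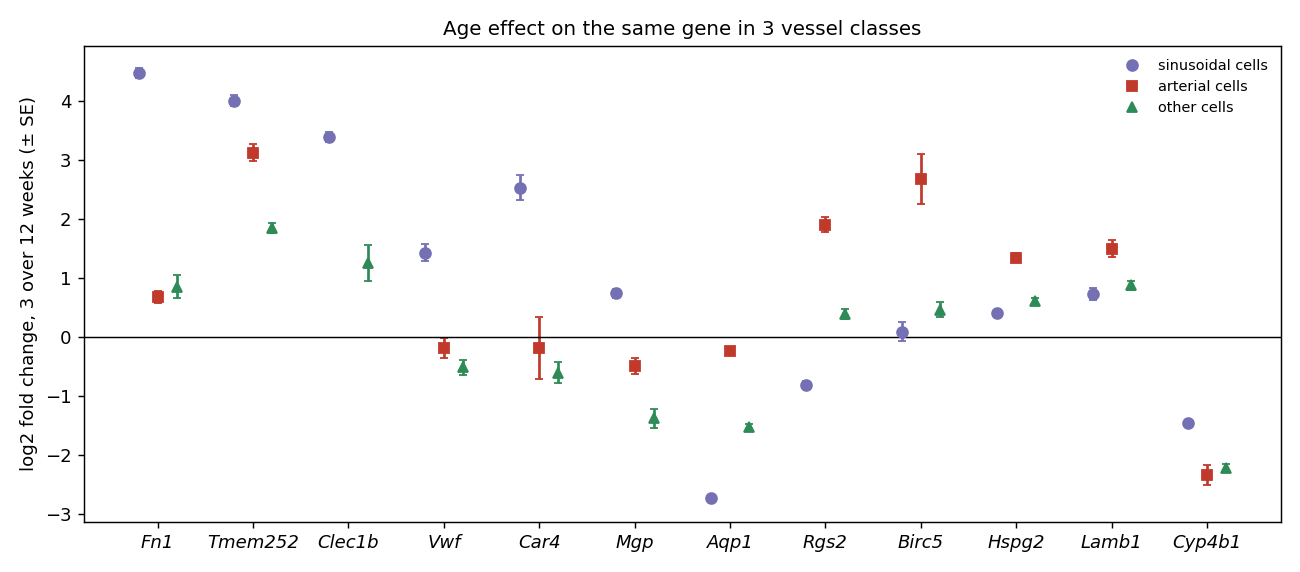
Log2 fold change of juvenile over adult cells with its standard error from edgeR, for 12 genes in sinusoidal (circles), arterial (squares) and other cells (triangles); a missing point means that the gene did not pass the filter on low counts in that class. Fn1, Tmem252 and Clec1b lie highest in sinusoidal cells, Rgs2 and Birc5 in arterial cells, and Aqp1 is lowest in sinusoidal cells at -2.73.

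Because only the juvenile pool held males, male and female juvenile cells were compared within each juvenile library, with male cells taken by a Y-linked UMI and female cells by Xist. The pools gave 1282 and 1115 male and 900 and 887 female cells in the juvenile libraries. Of 11174 autosomal genes tested, 207 (1.85%) were called, and in sinusoidal cells 181 of 10349 (1.75%), in other cells 57 of 9117 (0.625%) and in arterial cells 0 of 3887 (0.00%) with edgeR, where 165 had an unadjusted p under 0.05. The female arterial cells numbered only 25 and 24 in the juvenile libraries, so the lack of calls there says little about sex. Of the genes called with age over all ECs that could be tested for sex, 120 of 1911 (6.28%) were also called for sex. Madcam1 was such a gene, with 26.5 and 31.9 CPM in male and 85.1 and 84.1 CPM in female cells (log2 fold change, male over female, -1.54 ± 0.10 (SE), adjusted p = 1.23e-10). Mt1 was another, at 75.9 and 60.7 CPM in male and 153 and 196 CPM in female cells (log2 fold change, male over female, -1.35 ± 0.096 (SE), adjusted p = 5.79e-10). So was Tmem252, at 71.1 and 68.02 CPM in male and 124 and 121 CPM in female cells (log2 fold change, male over female, -0.81 ± 0.074 (SE), adjusted p = 4.17e-08). All 3 were higher in female than in male juvenile cells in both libraries. When only female cells were compared between the ages, 2188 of 2198 age-called genes tested (99.5%) kept their direction over all ECs, and 1699 of 1703 (99.8%), 707 of 731 (96.7%) and 1647 of 1665 (98.9%) in sinusoidal, arterial and other cells. This share rests on cells of the same libraries and is not a second sample. For arterial cells it also rests on the few female cells given above.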

How the data were processed

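Long bone ECs were profiled by droplet single-cell RNA sequencing in 10 libraries, of which the 2 juvenile and the 2 untreated adult ones were compared. The deposited values are raw UMI counts per gene and cell. Per the labels and the submitters' processing notes, the authors made these counts with UMI-tools 1.1.2, STAR 2.7.10a and Subread featureCounts 2.0.3 on mm10. Whether strand was used and which annotation was counted is not given in the sources used here, so overlapping genes may share reads.

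Cells were chosen and divided as stated above, and UMIs were summed per library and class (Python 3.11.15, numpy 2.4.6, pandas 2.3.3, scipy 1.17.1). Of 26504 genes, 24670 were placed on chromosomes by symbol in GENCODE vM21 (GRCm38), 40 by RefSeq symbol, 1200 by RefSeq synonym and 594 by none. The 24634 autosomal genes were used, and unplaced genes held 0.285% of UMIs. The sums were tested in R 4.3.3 with edgeR 4.0.16 (filterByExpr, TMM, quasi-likelihood test, Benjamini-Hochberg adjustment over all genes tested), and the test was checked on simulated counts. CPM are scaled by TMM factors. Shares of cells were compared by exact two-sided permutation over libraries, with 95% Clopper-Pearson intervals that cover counting error only, and a level against a count of 0 was bounded by a floor of 3 counts. Doublets were not removed, except in an alternative with Scrublet (scanpy 1.11.5). Libraries of the older and treated groups entered only alternatives.

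Named genes were, per class, the 10 largest increases and the 10 largest decreases among called protein-coding genes of at least 20 CPM in the higher group without overlap of the groups, leaving out genes used to choose cells, predicted genes and markers of other cells; up to 4 called members of each list, with members that complete a pathway role; and the 6 largest differences between classes. Members and lists were chosen with earlier results of these data known. Mmp14, which is in no list, and members of a list beyond its first 4 were named after their values were seen. The alternatives were DESeq2 1.42.0, other scaling, filters and thresholds, thinned cells, female cells, cells without UMIs of other cell types, other libraries in the fit, each library left out, and the replicate number as a block. Crossed replicate numbers and removal of cells with UMIs of 24 blood genes were added after seeing the data.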

Additional observations from a re-analysis of the deposited data

Results flagged for a closer look

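The age effect differed between vessel classes for the following genes by the edgeR interaction test (Benjamini-Hochberg adjusted p under 0.05), with values as the difference of log2 fold changes, juvenile over adult. Most were named for the size of that difference.

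Between arterial and sinusoidal cells the difference was -3.82 for Fn1, -3.55 for Clec1b, -3.02 for Mt2 and -1.58 for Ifit3, and it was 2.69 for Rgs2, 2.55 for Birc5, 2.46 for Aqp1, 1.03 for Igfbp2 and 0.68 for H2-D1. It was -8.66 for Cxcl14, which had no UMI in juvenile arterial cells, so that this fitted value depends on the prior count and is no bound. For 3 genes known from bone, fat or acute-phase plasma, Mmp13, Hp and Adipoq, it was -4.71, -4.40 and -3.64. Mmp13, Hp and Clec1b did not pass the filter on low counts within arterial cells, so they have no age effect of their own there. In arterial cells the sum of osteoblast and osteocyte markers was 18.0 and 34.2 against 23.9 and 122 CPM, so 1 adult library held most of the adult RNA, and its part was not tested. Adipoq had 2 UMIs in juvenile and 183 in adult arterial cells, 37.7-fold lower by CPM (95% counting interval 10.3 to 313). Fcgr2b had a difference of -3.37 and rests on 1 UMI in juvenile against 51 in adult arterial cells, with a counting interval of 3.60 to 845 for the fold decrease.

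Between other and sinusoidal cells it was -3.63 for Fn1, -3.15 for Car4, -2.59 for Tacr1, -2.16 for Tmem252, -2.14 for Clec1b, -2.14 for Mgp and -1.96 for Vwf. For the antibody genes Igkc and Ighm it was 4.84 and 4.04, and 1 adult library held most of their RNA in sinusoidal cells. For the basophil gene Mcpt8 it was -4.58, with 1 UMI in juvenile and 1414 in adult other cells, 1020-fold lower (183 to 40333). For the mural gene Rgs5 and the stromal gene Dcn it was -4.69 and -3.32.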

How the results depend on the processing

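Called genes over all ECs, sinusoidal, arterial and other cells numbered 2745, 2006, 1064 and 2113. A size limit of 1 on the log2 scale gave 1263, 806, 431 and 1005, and no limit gave 6340, 4833 and 3788 over all ECs, sinusoidal and other cells. In arterial and other cells DESeq2 called 357 and 1222, female cells alone gave 105 and 818, and thinned cells 612 and 1405. Leaving out each library gave 2459 to 2756, 1770 to 2066, 721 to 781 and 1838 to 2095. A replicate block gave 2672, 2042, 1072 and 1938, but same-numbered libraries did not deviate together (correlations of -0.149, -0.059, -0.021 and -0.111), so the numbers are names only. Crossed pairing of the numbers, chosen after seeing the data, gave 2885, 2089, 998 and 2205 calls. Removing cells with blood gene UMIs, also added then, gave 2555, 1914, 862 and 2024. Class differences in the age effect (724 for arterial against sinusoidal, 912 for other against sinusoidal and 375 for arterial against other cells) numbered 89, 278 and 23 in female cells, 345, 418 and 191 in thinned cells, and 422 to 501, 516 to 674 and 199 to 239 with a library left out. Without the filter on low counts, 11 genes differed by sex in arterial cells. The difference in the sinusoidal share was 8.41 percentage points in thinned cells, 17.0 with stricter thresholds, 10.2 in female cells and 15.3 to 16.0 with a library left out. For the arterial share it was -4.78 (stricter), -3.33 (female) and -6.23 to -5.15 (left out), and for other cells -2.87 (thinned), -12.3, -6.88 and -10.8 to -9.06. The difference in the share of cells with UMIs of mitosis genes was, over all ECs, 5.52 with 1 gene required, 1.34 with 3, 6.96 without thinning and 1.78 to 2.22 with a library left out. It was 3.46, 0.247 (with overlapping groups), 5.24 and 0.581 to 1.30 in sinusoidal, 10.4, 4.81, 10.2 and 5.03 to 5.93 in other, and 10.99 with 1 gene, 7.95 without thinning and 1.79 to 4.81 in arterial cells. Of 9952 values of named genes under the alternatives, 393 lost their call and 7 reversed, namely Car4 in thinned other cells (0.23), Cdkn1c in female arterial cells (-0.56), Wnt5b in female other cells (-0.39), Col18a1 over all ECs (-0.016) and Mgp in sinusoidal cells (-0.28) against the mean of the 3 groups of 12-week-old mice, and the uncalled Igf1r over all ECs as the mean of 3 classes (-0.10) and without cells holding UMIs of other cell types (-0.050). The cause was not tested. The 2 libraries of each age come from 1 pool, and the depth of arterial cells limits their low genes.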
